A study of Mus musculus with 4 samples.

Results

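Imprinted genes are read mainly from the chromosome inherited from 1 parent, and 40 mouse genes of this kind were examined, 22 described as paternally expressed and 18 as maternally expressed. A probe set, the group of probes that reports 1 transcript on an Affymetrix Mouse430_2 array, counted for a gene when its only platform symbol was that gene's, and 38 of the 40 genes had at least 1, among 18193 genes on the array. The RNA came from small intestinal epithelium of mouse embryos at E15.5, enriched by magnetic selection for Epcam, a surface protein of epithelial cells, over a stretch of gut that included the stomach and caecum. The Yy1 knockout group (2 arrays, genotype Yy1f/f; Shh-Cre) carried floxed Yy1 alleles and a Cre recombinase driven by Shh, a gene of the gut endoderm. The WT group (2 arrays, genotype YY1f/f) carried floxed alleles without Cre, so that floxed Yy1 was common to all samples. Each sample pooled up to 2 embryos of its genotype, and the controls were littermates. No control carried Cre, and the effects of Cre and of Yy1 loss cannot be told apart in any value given here.

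The choice of parental allele rests on DNA methylation laid down in the germ line at control regions, each of which governs a domain of neighbouring genes. Many paternally expressed genes, such as the growth factor gene Igf2, promote growth of the embryo, and many maternally expressed genes, such as the cell cycle inhibitor gene Cdkn1c, restrain it. Most are highly active in fetal tissues, mesenchyme among them, and are turned down after birth. Yy1 encodes a zinc finger protein that activates or represses transcription, and in mouse cells it binds clusters of its motif in the control regions of the Peg3 and Gnas domains. The arrays measured total RNA of each gene and did not separate the parental alleles. The labels paternally and maternally expressed are background knowledge, and 12 of the genes (11 maternally expressed) are known to be imprinted only in some tissues or transcripts.

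All values are log2 intensities normalized by the authors with GCRMA, on which 1 unit is a 2-fold difference, and a gene was tested when a probe set reached 4 on at least 2 of the 4 arrays. Yy1 itself read 7.27 and 6.81 in the knockout arrays against 8.79 and 8.82 in the WT arrays (change -1.77, SE 0.17, adjusted p = 0.00209), which left 29.3% of the WT level, with adjusted p = 0.0504 without WT replicate 2. Shh, the gene that the Cre is named for, read 5.55 and 5.36 in the knockout against 7.42 and 7.38 in WT (change -1.95, SE 0.11, adjusted p = 0.000812), or 26.0% of the WT level. Epithelial markers were bright in both genotypes: 3 of 12 rose, 4 fell and 5 did not pass, with a median change of -0.17, and Epcam itself was at 11.01 and 11.15 in the knockout against 11.50 and 11.54 in WT. Markers of most, but not all, of the other cell types were higher in the knockout. All 11 tested of 14 mesenchyme markers rose (median 2.16), their summed linear level was 2760 to 2978 in the knockout and 717 to 890.3 in WT, and Twist1 and Thy1 lay at the lowest array value, within 0.1, in all samples. Of 7 smooth muscle markers 6 were tested and rose (median 3.22), with sums of 2366 to 2421 in the knockout and 199.6 to 322 in WT. Leukocyte markers (4 of 7 tested, all higher, median 2.00) summed to 229 to 267 in the knockout and 71.1 to 74.0 in WT. Markers of pancreas and liver (6 of 7 tested, 4 higher, Afp lower at -0.89, Ttr not past the threshold, median 1.77, Alb at the lowest values) summed to 3548 to 4437 in the knockout and 2131 to 2150 in WT. Of the 7 endothelial markers none reached the filter and 5 lay at the lowest values in all samples. Erythroid markers (2 of 7 tested, both higher, median 3.86, Hba-a1 at the lowest values) summed to 921 to 1038 in the knockout and 83.3 to 102 in WT. Of 9 markers of enteric neurons and glia 1 was tested and rose (sums 83.7 to 112 in the knockout, 49.4 to 52.2 in WT), and of 4 mesothelial markers 1 was tested and fell by 2.39. WT was under the filter on both arrays for 5 of the 11 mesenchyme, 1 of the 6 smooth muscle and 3 of the 4 leukocyte markers. The same held for 1 of the 2 erythroid markers and for the enteric one, and the filter then fixes the direction. The 6 mesenchyme markers bright in both genotypes had a median change of 2.24. Of all tested genes 17.9% were higher. The gap between 3' and 5' control signal, which widens as RNA degrades, was larger in the knockout by 0.29 for Gapdh and by 0.04 for Actb. What part these differences have in the imprinted genes' values was not tested, and in bulk RNA a change in the share of cells of a type cannot be told from a change in RNA per cell.

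Of the 40 genes 28 were tested, 14 rose in the knockout, 4 fell and 10 did not pass an adjusted p of 0.05 (limma, 2 against 2 arrays). That is 64.3% called, beside 39.6% of the 8626 genes tested on the array, of which 17.9% were higher and 21.7% lower. Among 15 tested paternally expressed genes 7 rose and 1 fell, and their log2 changes ran between -1.03 and 2.56 around a median of 0.48. Among 13 tested maternally expressed genes 7 rose and 3 fell, and theirs ran between -1.41 and 1.36 around 0.41. The median over all tested genes was -0.03. Fitted changes of at least 2-fold belonged to 7 paternally expressed genes (6 higher, 1 lower) and 4 maternally expressed genes (2 higher, 2 lower), beside 13.1% of all tested genes. Among genes with both genotypes above the filter these were 4 higher and 1 lower paternally expressed and 2 higher and 1 lower maternally expressed genes, beside 9.31% of all such genes. The values of the genotypes did not overlap in 25 of the 28 genes, against 75.0% of all tested genes. For 3 of the higher genes WT, and for 1 of the lower genes the knockout, was under the filter on both arrays, and the filter then fixes the direction. Without these, 11 of 24 rose and 3 fell, beside 35.5% called among all genes bright in both genotypes. Leaving out 1 array changed the counts by class: 6 paternally expressed genes were higher in each case, against 1 to 4 maternally expressed genes (2 without WT replicate 1, 1 without WT replicate 2, 4 without knockout replicate 1 and 1 without knockout replicate 2). Of the 18 called genes 10 passed without each array in turn, with a highest adjusted p of 0.0498, while the calls among all genes numbered 1433 without WT replicate 1, 797 without WT replicate 2, 1638 without knockout replicate 1 and 1113 without knockout replicate 2, against 3416. The paternal median was 0.28 without knockout replicate 2 and 0.91 with the least variable probe set of each gene. Without the genes of limited imprinting 5 maternally expressed genes were tested, 3 higher and 2 lower, with a median of 0.81. The 3 higher genes all belong to the Dlk1-Meg3 domain, and the median is the change of Mirg, which was under the filter in WT. With a filter on the interquartile range the maternal median was 0.25. With no filter on low values 1 paternally and 0 maternally expressed genes passed, among 87 genes in all (4386 at an unadjusted p under 0.05, limma). Counted by probe set, 37 of the 68 tested for the imprinted genes were higher and 8 lower, beside 37.1% called among all tested probe sets, 17.1% higher and 20.0% lower. Probe sets of 1 gene are not independent, and Meg3 supplied 9, Ndn 5 and Rian 4 of the 37. Some of the 37 had WT under the filter, which fixes their direction.

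**Figure D1:**
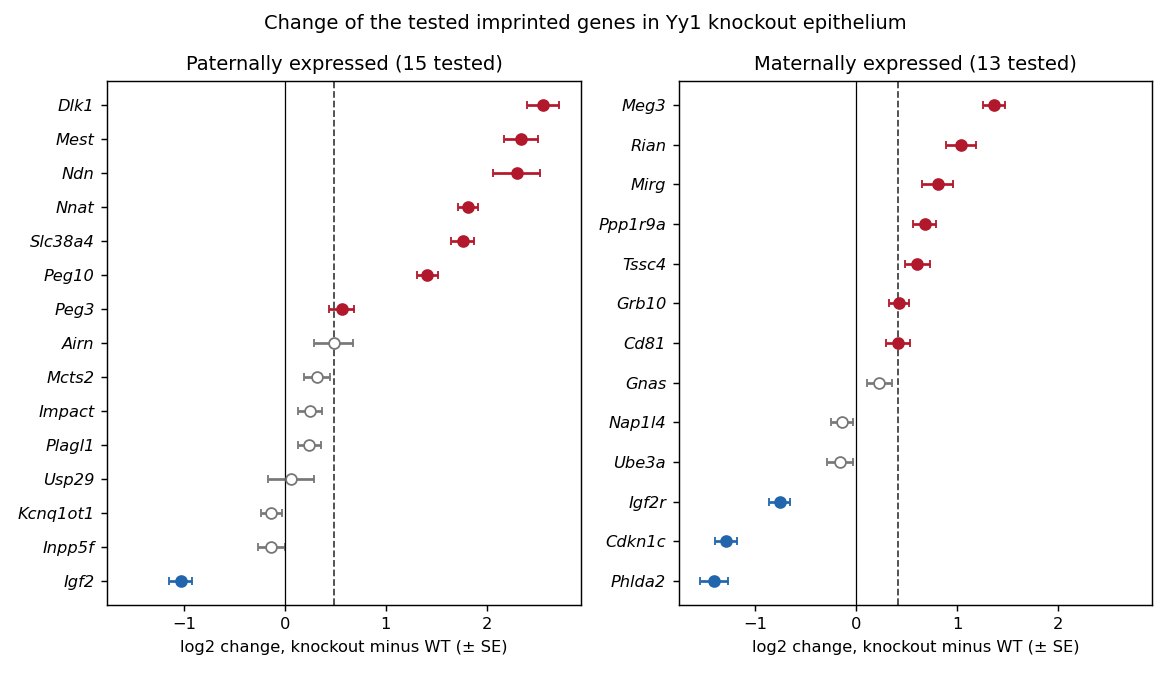
Log2 change (knockout minus WT, horizontal axis, with its standard error from limma) of each tested imprinted gene, 15 paternally expressed on the left and 13 maternally expressed on the right. Red points were higher, blue points lower at an adjusted p under 0.05, open points did not pass, and dashed lines mark the medians of 0.48 and 0.41; the highest changes, up to 2.56, belong to Dlk1, Mest and Ndn.

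**Figure D2:**
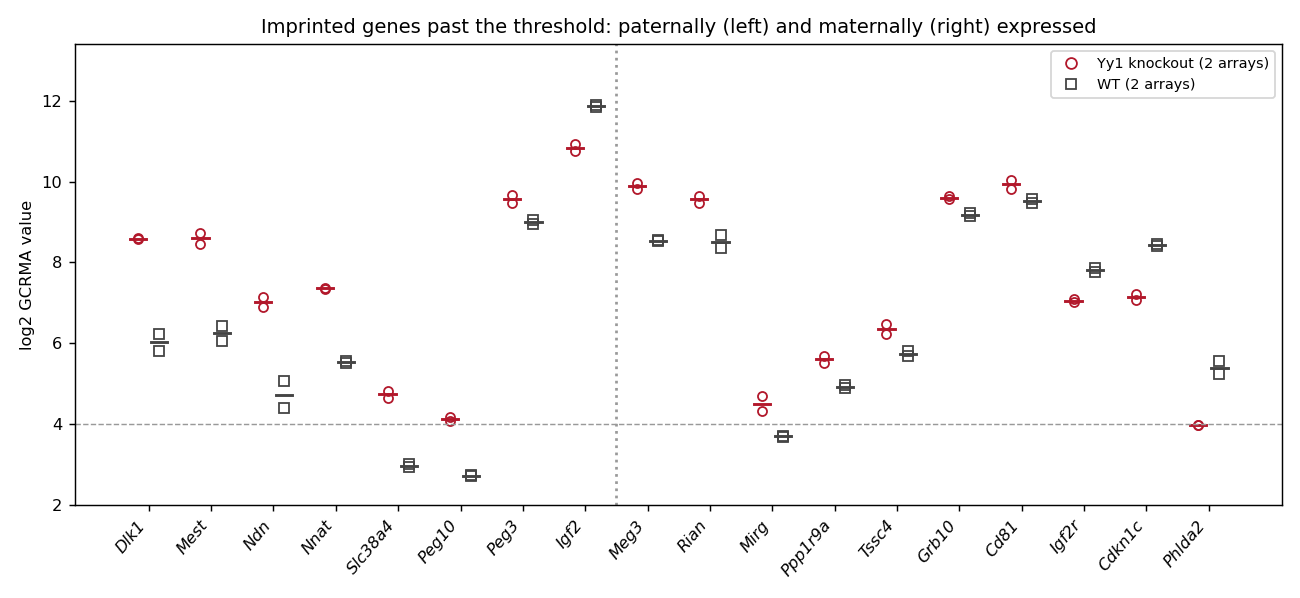
Log2 GCRMA value (vertical axis) on each array for the 18 imprinted genes past the threshold, with knockout arrays as red circles, WT arrays as dark grey squares and group means as bars; the dashed line is the filter at 4. The genes are shown because they passed the threshold, so their separation is part of that choice (75.0% of all tested genes do not overlap), and Slc38a4, Peg10, Mirg and Phlda2 have 1 genotype wholly under the filter.

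Promoter sequence was looked at because the deleted gene encodes a DNA-binding protein. RefSeq windows (GRCm38.p6) from 250 bases before to 50 after a start site were at hand for 34 of the 40 genes, 54 windows in all, and were searched on both strands for CCATNTT, a core form of the Yy1 motif. It occurred in 7 of these windows, in 4 of the 26 windows of called genes (15.4%) and in 16.1% of all 32851 windows. The 4 windows of called genes are printed here, 250 bases up to the start site, 5′ to 3′ on the strand of the gene and with the motif in capitals. They belong to 3 genes that rose (Nnat, Slc38a4 and Grb10) and to Igf2, which fell, and for Slc38a4 (3 windows), Grb10 (2) and Igf2 (4) the motif lies in 1 window of the gene.
Nnat, chr2:157559828-157560077, plus strand, motif beginning 195 bases before the start: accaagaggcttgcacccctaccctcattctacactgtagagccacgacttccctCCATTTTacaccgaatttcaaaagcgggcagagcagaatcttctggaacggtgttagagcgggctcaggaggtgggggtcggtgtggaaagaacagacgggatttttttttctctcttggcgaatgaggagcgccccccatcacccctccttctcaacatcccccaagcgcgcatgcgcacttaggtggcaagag
Slc38a4, chr15:97020360-97020609, minus strand, motif beginning 172 bases before the start: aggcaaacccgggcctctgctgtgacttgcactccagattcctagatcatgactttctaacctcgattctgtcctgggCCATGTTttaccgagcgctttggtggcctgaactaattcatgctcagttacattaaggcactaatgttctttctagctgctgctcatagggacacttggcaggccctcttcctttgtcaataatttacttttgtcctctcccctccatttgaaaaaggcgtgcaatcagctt
Grb10, chr11:12027972-12028221, minus strand, motif beginning 203 bases before the start: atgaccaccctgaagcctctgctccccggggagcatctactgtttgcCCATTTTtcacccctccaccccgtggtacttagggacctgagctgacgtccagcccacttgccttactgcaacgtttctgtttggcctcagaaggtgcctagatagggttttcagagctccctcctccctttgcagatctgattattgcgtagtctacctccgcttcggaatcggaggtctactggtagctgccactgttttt
Igf2, chr7:142661272-142661521, minus strand, motif beginning 244 bases before the start: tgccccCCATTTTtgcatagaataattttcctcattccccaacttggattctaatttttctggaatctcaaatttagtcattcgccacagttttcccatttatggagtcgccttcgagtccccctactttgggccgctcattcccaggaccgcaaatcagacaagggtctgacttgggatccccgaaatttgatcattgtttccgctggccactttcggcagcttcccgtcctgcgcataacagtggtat
A match is a run of letters and not a measured binding site, and no window of Dlk1, Mest, Ndn, Meg3 or Peg3 held it. The control regions of the domains were not searched beyond these windows, so the absence of a match does not extend to them.

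The RNA of insulin-like growth factor 2 and that of its clearance receptor were both lower in the knockout, and neither protein nor signalling was measured. Igf2, the paternally expressed growth factor of the embryo, read 10.74 and 10.93 in the knockout arrays against 11.89 and 11.84 in the WT arrays. It fell by 1.03 (SE 0.11, adjusted p = 0.00298), to 49.0% of the WT level, and its further probe set fell by 1.46 (adjusted p = 0.00145). This was the single paternally expressed gene of the 15 that fell. Igf2r, maternally expressed, encodes the receptor that takes Igf2 up for degradation in lysosomes. Its values were 7.01 and 7.09 in the knockout against 7.76 and 7.87 in WT, a change of -0.76 (SE 0.11, adjusted p = 0.00571) on 1 probe set and of -0.99 (adjusted p = 0.00269) on the other. Both knockout arrays lay under both WT arrays on each, while the genotypes do not overlap in 75.0% of all tested genes. Igf2r did not pass without WT replicate 2 (adjusted p = 0.0637) or without knockout replicate 2 (0.0505). Airn, the paternally expressed antisense RNA that silences Igf2r in cis, read 6.59 and 7.01 in the knockout and 6.49 and 6.14 in WT, a change of 0.48 (SE 0.19) that did not pass (adjusted p = 0.107), like its other 2 tested probe sets. Grb10, a maternally expressed adaptor that dampens signals of the insulin and Igf1 receptors, was at 9.57 and 9.63 in the knockout and 9.21 and 9.15 in WT. It rose by 0.42 (SE 0.10, adjusted p = 0.0271), and its other 2 probe sets rose by 0.57 and 0.91. The Grb10 call was lost without any 1 array (adjusted p = 0.0774 to 0.132) and with the replicate number as a block (0.0606). H19, the maternally expressed RNA beside Igf2, shares its probe set with a second symbol and was not analysed here.

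Of the 6 tested genes placed in the Kcnq1ot1 domain, 2 fell, 2 rose and 2 did not pass. Of all tested genes 39.6% were called, 17.9% higher and 21.7% lower. For Phlda2, 1 of the 2 that fell, the filter fixes the direction. Ascl2 and Slc22a18, which lie in the region of the Kcnq1ot1 domain and were counted among the further imprinted genes, fell as well. Both were under the filter on both knockout arrays, so the filter fixes the direction of these falls. Kcnq1, of the same region and list and also named after its values were seen, rose by 0.63. It read 4.71 and 4.43 in the knockout against 4.09 and 3.79 in WT (adjusted p = 0.0308). Slc22a18, a membrane transporter gene named here after its values were seen, read 3.65 and 3.76 in the knockout against 4.36 and 4.40 in WT, at least 1.30-fold lower (adjusted p = 0.00731). Cdkn1c, which encodes the cyclin-dependent kinase inhibitor p57 and is maternally expressed, read 7.08 and 7.21 in the knockout against 8.42 and 8.46 in WT. The change of -1.29 (SE 0.11, adjusted p = 0.00148) left 40.9% of the WT level. Phlda2, a maternally expressed pleckstrin homology gene known for limiting placental growth, was at an identical 3.99 on both knockout arrays against 5.24 and 5.56 in WT. Since both knockout values lay under the filter, its fall was at least 2.64-fold when they are set to the filter level (fitted change -1.41, SE 0.14, adjusted p = 0.00221). Kcnq1ot1, the paternally expressed antisense RNA that silences the domain in cis, had 6 tested probe sets that differed among themselves. The brightest read 7.39 and 7.33 in the knockout and 7.44 and 7.55 in WT (change -0.13, adjusted p = 0.367). A dimmer one was at 5.77 and 5.72 in the knockout against 4.55 and 4.63 in WT (change 1.15, adjusted p = 0.00175), and the other 4 changed by -0.30 to 0.18 without passing. For this RNA the direction depends on the probe set. Cd81, a tetraspanin gene imprinted in placenta, read 9.83 and 10.04 in the knockout and 9.48 and 9.56 in WT (change 0.41, SE 0.12, adjusted p = 0.0470). Tssc4, its neighbour, read 6.24 and 6.47 in the knockout and 5.81 and 5.68 in WT (change 0.61, SE 0.13, adjusted p = 0.0180). Both rises were small, and both calls depended on single arrays: that of Cd81 was lost without any 1 array (adjusted p = 0.0679 to 0.188) and with a replicate block (0.0653), and that of Tssc4 without WT replicate 1 (0.0823), WT replicate 2 (0.125) or knockout replicate 2 (0.0932). Nap1l4, a histone chaperone gene at the edge of the domain, did not pass (8.56 and 8.61 in the knockout, 8.68 and 8.77 in WT, adjusted p = 0.336). Osbpl5, the last gene of the domain, stayed under the filter, with a highest value of 2.99.

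The Dlk1-Meg3 domain was higher in the knockout for genes of both parental alleles. Dlk1 encodes a transmembrane relative of the Notch ligands that is expressed from the paternal allele and marks fetal progenitor and mesenchymal cells. It read 8.60 and 8.57 in the knockout arrays against 6.24 and 5.82 in the WT arrays, a rise of 2.56 (SE 0.16, adjusted p = 0.000964) or 5.90-fold, the largest among the 28 tested imprinted genes. Meg3, Rian and Mirg are long non-coding RNAs transcribed from the maternal allele, and Rian and Mirg are hosts of small nucleolar RNAs and microRNAs. Meg3 was at 9.83 and 9.97 in the knockout against 8.54 and 8.52 in WT (change 1.36, SE 0.11, adjusted p = 0.00135). Of its 10 tested probe sets 9 rose, and the changes of all 10 lay between 0.68 and 1.56. Those that rose by 0.75, 0.86 and 1.17 had WT under the filter on both arrays, and there the filter fixes the direction. The knockout values of Rian were 9.64 and 9.48, against 8.69 and 8.34 in WT (change 1.04, SE 0.15, adjusted p = 0.00637), and all 4 of its probe sets rose, by 1.0 to 1.04. Mirg read 4.32 and 4.69 in the knockout and 3.72 and 3.68 in WT (fitted change 0.81, SE 0.15, adjusted p = 0.0126), and with WT under the filter its rise was at least 1.42-fold. No array of one genotype reached those of the other for any of these 4 genes, which also holds for 75.0% of all tested genes. The Rian call was lost without WT replicate 2 (adjusted p = 0.0579), knockout replicate 1 (0.0647) or knockout replicate 2 (0.0618), though 2 of its other probe sets passed in the fit to all arrays with adjusted p of 0.00221 and 0.00257. The Mirg call was lost without WT replicate 1 (adjusted p = 0.0897), WT replicate 2 (0.109) or knockout replicate 2 (0.0590). In the RefSeq gene table Yy1 lies on chromosome 12 beside this domain, with 5 protein-coding genes between it and Dlk1, so that the floxed locus is itself a neighbour of Dlk1 and Meg3. Of those 5, Wars (7.42 and 7.62 in the knockout, 6.98 and 7.08 in WT, change 0.49, adjusted p = 0.0294) was the 1 gene tested, and 1 of its 4 probe sets passed. On the same arrays the mesenchyme markers had a median change of 2.16, Col1a1 among them with 9.39 and 9.27 in the knockout against 7.39 and 6.95 in WT. Medians were 3.22 for smooth muscle, 2.00 for leukocyte, 3.86 for erythroid, 1.77 for pancreas and liver and -0.17 for epithelial markers. The mesenchyme, smooth muscle, leukocyte and erythroid medians include markers with WT under the filter, whose direction the filter fixes. What part these differences have in the values of the domain was not tested.

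**Figure D3:**
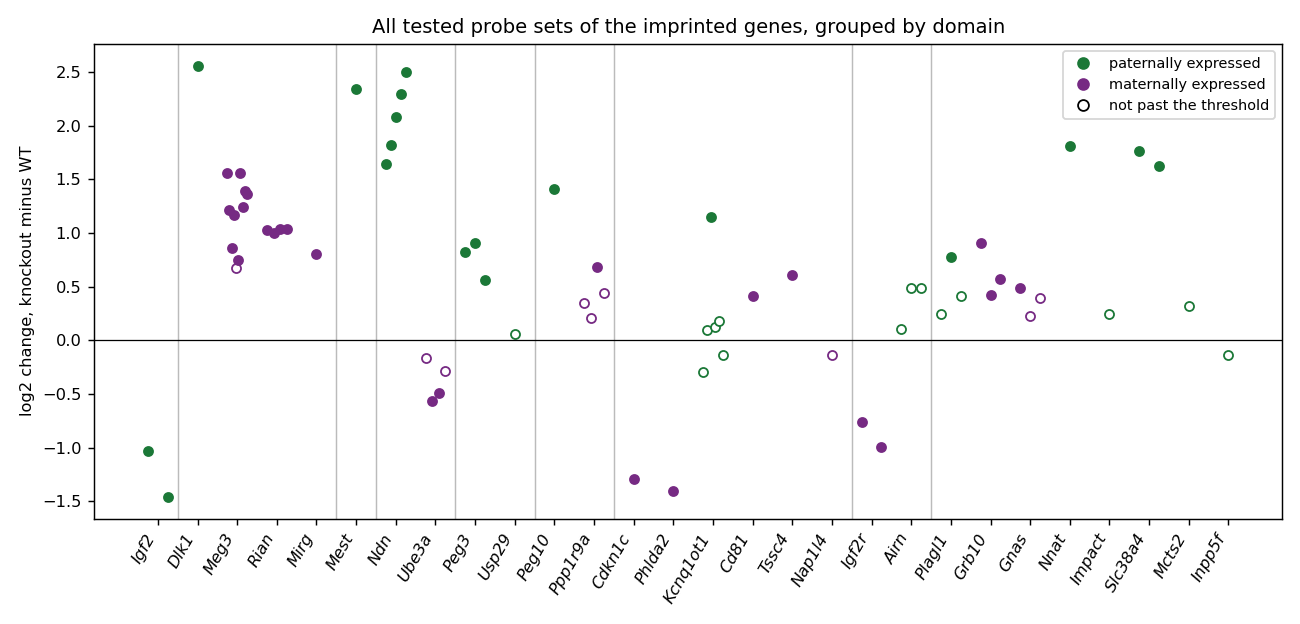
Log2 change (knockout minus WT, vertical axis) of every tested probe set of the imprinted genes, 68 in all, with genes grouped by domain between grey lines and single genes at the right. Green marks paternally and purple maternally expressed genes, and open points did not pass an adjusted p of 0.05. All 10 Meg3 and all 5 Ndn probe sets lie above 0, while the Kcnq1ot1 probe sets spread from -0.30 to 1.15. Some of the Meg3 and Ndn probe sets had WT under the filter, which fixes their direction.

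Among paternally expressed genes outside these domains Mest, Ndn and Nnat rose over 2-fold, while for Slc38a4 and Peg10, dim in WT, only smaller bounds can be given. Mest, an endoplasmic reticulum protein of the hydrolase fold that is abundant in embryonic mesoderm, read 8.72 and 8.47 in the knockout against 6.44 and 6.06 in WT. It rose by 2.34 (SE 0.17, adjusted p = 0.00113), or 5.07-fold. Its maternally expressed partner Copg2, a coat protein gene of the Golgi, stayed under the filter at 3.92 and just under 4 in the knockout and 3.78 and 3.82 in WT, and was not tested. Ndn encodes necdin, a growth suppressor of the MAGE family that is strong in neurons and muscle precursors. Its brightest probe set was at 7.14 and 6.91 in the knockout against 5.06 and 4.40 in WT (change 2.30, SE 0.24, adjusted p = 0.00244), and all 5 tested probe sets rose, by 1.64 to 2.50. The Ndn probe set that rose by 1.64 had WT under the filter on both arrays, which fixes its direction. Nnat, a small membrane proteolipid gene named for the neonatal brain, had 7.35 and 7.36 in the knockout and 5.52 and 5.56 in WT. The rise of 1.81 (SE 0.10, adjusted p = 0.000738), or 3.51-fold, had the smallest adjusted p of the 28 genes and was the 1 call among the 18 that also passed with no filter on low values. Slc38a4, a transporter of neutral amino acids, read 4.82 and 4.65 in the knockout against 2.94 and 3.01 in WT, a rise of at least 1.67-fold over the filter level (fitted change 1.76, adjusted p = 0.00101). Its further probe set rose by 1.62. Peg10, derived from a retrotransposon and needed for the placenta, read 4.19 and 4.09 in the knockout and 2.73 and 2.72 in WT, at least 1.10-fold higher (fitted change 1.41, adjusted p = 0.00116). For each of these 5 rising genes the lowest knockout value lay above the highest WT value. Genotypes do not overlap in 75.0% of all tested genes, and for Slc38a4 and Peg10 the filter fixes the direction. Marker medians were 2.16 for mesenchyme, 3.22 for smooth muscle, 2.00 for leukocytes, 3.86 for erythroid cells and 1.77 for pancreas and liver. All of these lists but pancreas and liver hold markers with WT under the filter, whose direction the filter fixes. For epithelial markers the median was -0.17, and what part these differences have in the 5 rises was not tested.

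The Peg3 domain, where Yy1 is known to bind, held 1 small rise. Peg3, a paternally expressed zinc finger gene, read 9.67 and 9.46 in the knockout against 9.05 and 8.94 in WT (change 0.57, SE 0.12, adjusted p = 0.0195), and its other 2 tested probe sets rose by 0.83 and 0.91. On the brightest probe set the call was lost without any 1 array (adjusted p = 0.0611 to 0.128). Usp29, a paternally expressed ubiquitin protease gene that starts beside Peg3 on the other strand, read 5.65 and 5.57 in the knockout and 5.89 and 5.22 in WT (adjusted p = 0.862). The WT arrays lay on both sides of the knockout arrays. Zim1, the maternally expressed zinc finger gene of the domain, stayed under the filter, with a highest value of 3.07. Gnas, whose domain is the further known site of Yy1 binding, encodes the stimulatory G protein subunit and gives rise to several transcripts of different imprinting. Its brightest probe set read 10.36 and 10.58 in the knockout and 10.31 and 10.18 in WT (change 0.23, SE 0.13, adjusted p = 0.210). Of its other 2 tested probe sets 1 rose by 0.48 (adjusted p = 0.0293) and the other, at 0.39, did not pass (adjusted p = 0.105).

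Most of the other genes did not pass. Plagl1, a paternally expressed zinc finger factor that is known to regulate other imprinted genes, read 9.45 on both knockout arrays and 9.11 and 9.29 in WT (change 0.24, SE 0.11, adjusted p = 0.151). A dimmer Plagl1 probe set was at 5.84 and 6.10 in the knockout against 5.22 and 5.17 in WT (change 0.77, adjusted p = 0.00885), and the mean of its 3 probe sets passed (change 0.48, adjusted p = 0.0150). The choice of probe set therefore decides its call. Ube3a, a ubiquitin ligase gene that is imprinted in neurons, was at 8.35 and 8.23 in the knockout and 8.33 and 8.57 in WT on its brightest probe set (change -0.16, adjusted p = 0.371), and 2 of its 3 dimmer ones fell, by 0.56 and 0.49. Ppp1r9a, a neural actin-binding gene in the Peg10-Sgce domain, read 5.51 and 5.70 in the knockout against 4.96 and 4.89 in WT. It rose by 0.68 (SE 0.12, adjusted p = 0.00975) on 1 of 4 tested probe sets, and the call was lost without WT replicate 1 (adjusted p = 0.0636), WT replicate 2 (0.0870) or knockout replicate 2 (0.0651). Mcts2, a retrogene of a translation factor, had 7.29 and 7.38 in the knockout and 7.14 and 6.89 in WT (adjusted p = 0.104). The RWD domain gene Impact, a regulator of the kinase Gcn2, had 4.91 and 5.03 in the knockout and 4.81 and 4.63 in WT (adjusted p = 0.163). For both, all knockout values were above those of WT, by differences that did not pass, and 75.0% of all tested genes have genotypes that do not overlap. The inositol phosphatase gene Inpp5f had 4.24 and 4.53 in the knockout and 4.48 and 4.55 in WT (adjusted p = 0.474), with overlapping genotypes.

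The 12 genes not tested were 7 paternally and 5 maternally expressed. Sgce, the sarcoglycan gene that shares its promoter with Peg10, came closest to a difference, with 3.77 and 3.70 in the knockout and 2.56 and 2.63 in WT, all under the filter. The authors' deposited table, which lists probe sets that changed at least 2-fold, gives this Sgce probe set a log2 change of 1.14 with adjusted p = 0.000950. The authors' deposited table holds 27 probe sets of 13 of the imprinted genes, 23 of them with positive and 4 with negative log2 changes. In all, the authors' deposited table lists 2156 probe sets, 4.78% of those on the array, 1010 with positive and 1146 with negative log2 changes. Zdbf2, a zinc finger gene, reached 4.29 on 1 knockout array and was at 3.71 on the other, against 3.92 and 3.72 in WT. Asb4, a subunit of ubiquitin ligases, had a highest value of 3.12 and Peg12, an inhibitor of Gsk3, one of 2.92. Rasgrf1, a Ras exchange factor of neurons, had a highest value of 2.71, and the only Snrpn probe set of a single symbol one of 2.39. Snrpn has 6 further probe sets, which carry several symbols and were not analysed here, so its level is not settled. Magel2, a MAGE gene of the hypothalamus, lay at the lowest array value on all 4 arrays. Zrsr1 and H19 had no probe set of a single symbol and were not analysed here.

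The neighbours of the imprinted domains moved in both directions. The 5 nearest protein-coding genes on each side of every domain, leaving out Yy1, gave 77 tested genes, of which 13 rose and 16 fell (37.7%), with a median change of -0.10. This share lies near the 39.6% of all tested genes. The largest changes among the neighbours were those of the sialomucin gene Podxl next to Mest, with 5.35 and 5.18 in the knockout against 7.63 and 8.08 in WT (change -2.59, adjusted p = 0.00105), the collagen gene Col1a2 next to the Peg10 domain (8.06 and 7.84 in the knockout, 5.86 and 5.25 in WT, change 2.40, adjusted p = 0.00187) and the pancreatic carboxypeptidase gene Cpa1 next to Mest (change 2.13, adjusted p = 0.00109). Col1a2 and Cpa1 are also on the lists of mesenchyme and pancreas markers. Of 42 further genes described as imprinted, 17 were tested, and 4 rose, 4 fell and 9 did not pass, with a median of 0.05. Their share called (47.1%) was set by 8 genes, 4 of them under the filter in 1 genotype, and lies near the 39.6% of all tested genes. For these 4, with Dcn, Ins2 and Ascl2 among them, the filter fixes the direction. The proteoglycan gene Dcn, a product of fibroblasts that is imprinted in placenta, was at 5.93 and 5.22 in the knockout against 2.91 and 2.88 in WT, at least 2.98-fold higher (adjusted p = 0.00169). The insulin gene Ins2 was at least 1.46-fold higher (4.91 and 4.18 in the knockout, 3.24 and 3.13 in WT, adjusted p = 0.0116). Its call was lost without WT replicate 1 (adjusted p = 0.0919) or WT replicate 2 (0.116). Ascl2, a basic helix-loop-helix factor of intestinal stem cells, was at least 2.05-fold lower, with 3.53 and 3.52 in the knockout against 4.84 and 5.23 in WT (adjusted p = 0.00239). The genes called on this list numbered 3, 2, 3 and 3 when WT replicate 1, WT replicate 2, knockout replicate 1 and knockout replicate 2 were left out, and the neighbours called, Yy1 included, 9, 3, 15 and 10, against 30 with all arrays.

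A list of 29 genes linked to the maintenance of imprints also held enzymes that oxidise methylcytosine. Of its 24 tested genes 2 rose, 4 fell and 18 did not pass (25% called, beside 39.6% of all tested genes), with a median of 0.06. Tet2, an enzyme that oxidises methylcytosine, read 5.67 and 5.25 in the knockout against 6.41 and 6.78 in WT (change -1.14, SE 0.20, adjusted p = 0.0104). Uhrf1, which brings the maintenance methyltransferase to newly copied DNA, read 8.51 and 8.45 in the knockout against 9.16 and 9.18 in WT (change -0.69, SE 0.10, adjusted p = 0.00637), and its other probe set, at -0.22, did not pass. The Polycomb subunit gene Suz12 read 7.90 and 7.72 in the knockout against 8.26 and 8.53 in WT (change -0.58, SE 0.14, adjusted p = 0.0263). All 3 were named because they were the largest calls of the list without overlap, which 75.0% of all tested genes lack. Neither the maintenance methyltransferase gene Dnmt1 (change 0.26, adjusted p = 0.261) nor the insulator protein gene Ctcf (change of 0.00 after rounding, adjusted p of 1) passed, and Zfp57, a protector of imprints, stayed under the filter with a highest value of 3.13. The calls on this list numbered 0 without WT replicate 1, without WT replicate 2 and without knockout replicate 2, and 4 without knockout replicate 1. Tet2 (adjusted p = 0.0528, 0.0959 and 0.0845) and Uhrf1 (0.0515, 0.0650 and 0.0545) were lost in the first 3 of these cases and Suz12 (0.0618 to 0.15) in all 4 with the replicate block (0.0513) and with the least variable probe set (0.0585).

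**Figure D4:**
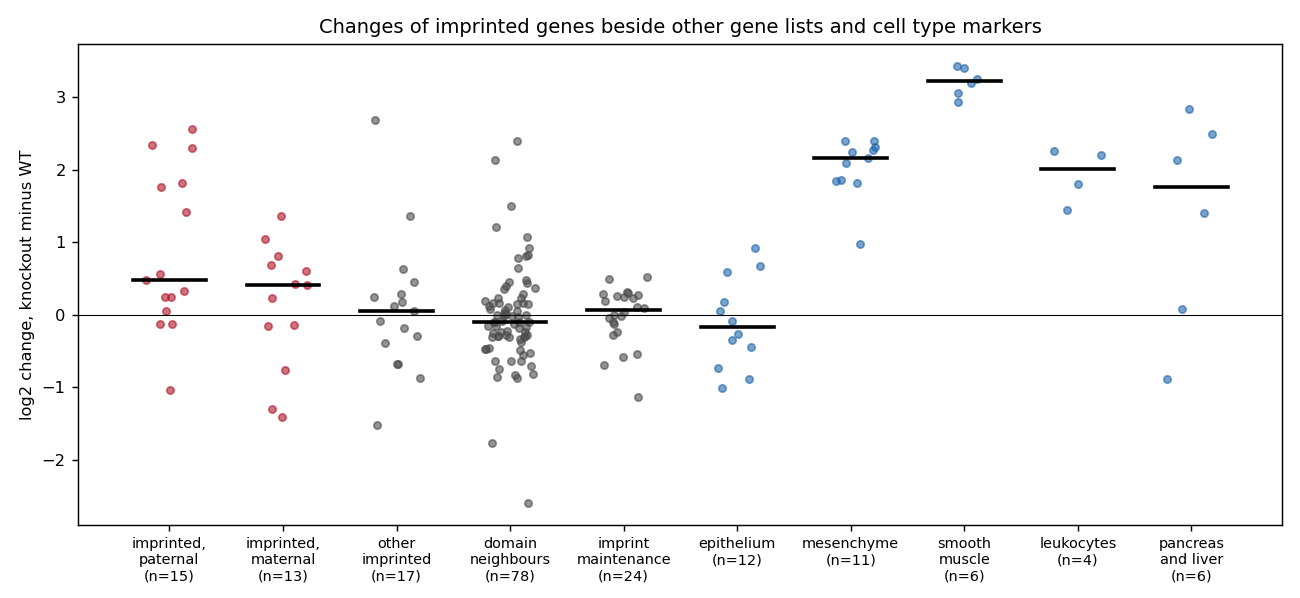
Log2 change (knockout minus WT, vertical axis) of each tested gene in 10 lists, with the list median as a bar: the imprinted genes in red, related genes in grey and cell type markers in blue. The medians of the imprinted genes (0.48 and 0.41) lie between those of the domain neighbours and of the mesenchyme markers (2.16), and the genes of both red lists spread over both sides of 0. Of the 11 mesenchyme markers 5 had WT under the filter, which fixes their direction.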

How the data were processed

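Total RNA of 4 samples was hybridised to 1 array each, and the deposited table held log2 intensities made by the authors with GCRMA, per the submitters' processing notes, which also name limma. GCRMA corrects background by probe sequence and presses dim probe sets towards the lowest array value, which compresses changes of dim genes. The authors' deposited comparison held log2 fold changes and p-values, whose direction was knockout minus WT to within 0.00748 of the value table, and scores that were not used. The sources used here give no versions. Groups came from the sample titles. Of 45037 probe sets without the 64 Affymetrix controls, 34945 had 1 platform symbol, 932 several and 9160 none listed. Those with a log2 value of at least 4 on at least 2 arrays (16887) went into limma 3.58.1 (R 4.3.3; lmFit, then eBayes, no covariates) with p-values adjusted by Benjamini-Hochberg over all of them, and a gene was represented by its brightest probe set. The script was tested on simulated data. The median SE was 0.12, and 4 arrays limit every precision; p-values measure the spread between pools of embryos. The imprinted genes and all lists were chosen with earlier results of these data known, and no list was tested as a set. Every imprinted gene is accounted for, and of other lists the 3 largest calls without overlap are named. Markers, Yy1, Shh, Wars, Slc22a18, Kcnq1, Dnmt1, Ctcf and Zfp57 are named besides. A fold given as at least a value sets the dim genotype to the filter level. The alternatives covered filter, scaling, variance model, replicate block, probe set choice, threshold, each array left out and limited imprinting. A block with crossed numbers and a filter on the interquartile range were chosen after seeing the data.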

Additional observations from a re-analysis of the deposited data

How the results depend on the processing

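Median centring, quantile normalization, an offset of 16 and the trended robust variance model kept all 18 calls among the imprinted genes, each in its direction. Without a filter on low values, 87 genes passed on the whole array (4386 at an unadjusted p under 0.05): 1 paternally expressed gene was higher and 0 lower, 0 maternally expressed genes were higher and 0 lower, the class medians were 0.25 and 0.25, and 0 genes passed on each of the lists of neighbours, maintenance genes and other imprinted genes; the cause was not tested. The maternal median was 0.32 with a filter at log2 of 6, where 3 other imprinted genes passed, 0.49 with quantile normalization and 0.25 with the interquartile range filter. The paternal median was 0.91 with the least variable probe set of each gene, which also gave Kcnq1ot1 a rise of 1.15. Without the genes of limited imprinting 3 maternally expressed genes were higher and 2 lower among 5 tested, and the median of that class was 0.81. At an adjusted p under 0.01, 1611 genes passed, 3 maternally expressed genes were higher, and 14 neighbours, 1 maintenance gene and 4 other imprinted genes passed. Leaving out each array in turn gave 797 to 1638 called genes against 3416, 1 to 4 higher maternally expressed genes, medians of 0.28 to 0.62 (paternal) and 0.31 to 0.45 (maternal), 3 to 15 neighbours, 0 to 4 maintenance genes and 2 to 3 other imprinted genes; the lone array of a genotype is then assumed to vary like the other group. The replicate block gave 2867 called genes and ended the calls of Grb10 and Cd81 among the imprinted genes and of Suz12. The labels do not say what the numbers mark, and deviations of same-numbered arrays correlated at -0.31; the crossed pairing gave 3515 called genes, with Cd81 lost and Airn gained among the imprinted genes. Values near the lowest array value have no measured order.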
